A study of Mus musculus with 16 samples.

Results

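Described here are the lectin-like receptors of natural killer (NK) cells, the Clec2 proteins that some of them bind, and Ncr1. The genes were chosen by name alone. They are the protein-coding genes of the count table whose symbol starts with Klra, Klrb, Klrc, Klrd, Klre, Klrg, Klrh, Klri or Klrk, those named Clec2 with a lower-case letter, and Ncr1. This gave 35 genes of the 53465 in the table, of which 34 lie on chromosome 6 and Ncr1 on chromosome 7. In GRCm38, 31 of them form the NK gene complex from Klrb1a (start 128609227) to Klra2 (end 131247362), while Klrg1, Klrg2 and Clec2l lie apart on the same chromosome. Bulk polyA RNA was sequenced from 16 MC38 tumors, each from a separate female C57BL/6 mouse injected subcutaneously at 6 to 8 weeks of age with cells of MC38, a mouse colorectal carcinoma line. Mice received 200 µg of control IgG (tumors 1 to 8, n = 8) or of an antibody to PD-1 (aPD-1) on days 16 and 20, and the tumors were harvested on day 21. The study designated aPD-1 tumors with raised CD8 T cell staining as responders (tumors 15 and 16, n = 2) and the others as non-responders (tumors 9 to 14, n = 6). Response therefore means T cell staining in these same tumors, not regression, so T cell transcripts are not independent of the grouping.

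The total expected count per tumor ranged from 26603477 to 39948874 (median 34105794). Of 8 markers of colon carcinoma epithelium, Cdx2 was at most 0.0259 CPM (counts scaled to a library of 1000000) in any tumor, and Cdh1, which encodes E-cadherin, measured 9.78 and 8.55 CPM in responders 15 and 16, 3.75 to 8.12 CPM in the non-responders and 3.91 to 5.73 CPM in the IgG tumors. The keratin gene Krt8 measured at most 1.03 CPM in the non-responders and 1.37 CPM in the IgG tumors. The list summed to 117 and 50.8 CPM in responders 15 and 16, 4.61 to 12.2 CPM in the non-responders and 4.95 to 10.2 CPM in the IgG tumors. The responders stood apart in other cell types too. The summed level of 10 B cell markers was 1484 and 386 CPM in responders 15 and 16, 3.01 to 8.15 CPM in the non-responders and 2.14 to 9.5 CPM in the IgG tumors. For 6 genes of high endothelial venules and lymph node stroma it was 423 and 130.5 CPM in responders 15 and 16, 0.922 to 4.58 CPM in the non-responders and 0.190 to 2.19 CPM in the IgG tumors, and for 10 T cell markers 307 and 291 CPM in responders 15 and 16, 16.2 to 42.6 CPM in the non-responders and 11.8 to 34.8 CPM in the IgG tumors. Mitochondrial transcripts took 7.60% of counts in IgG tumor 1, 6.00% in non-responder 9 and 5.73% in non-responder 14, and 2.52% to 3.25% in the other 13 tumors. In bulk RNA, fewer cells of a type and less RNA per cell cannot be told apart, and the part that these other cell types have in the results below was not tested.

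NK cells weigh signals from inhibitory and activating receptors, many of which are lectin-like proteins encoded side by side in the NK gene complex of mouse chromosome 6. Ly49 receptors (Klra genes) mostly read classical MHC class I, CD94-NKG2 dimers (Klrd1 with Klrc genes) read the nonclassical molecule Qa-1, NKG2D (Klrk1) reads stress-induced ligands, and NKR-P1 receptors (Klrb1 genes) read Clec2 proteins on other cells. Several of these receptors are also carried by activated CD8 T cells, while Ncr1, which encodes NKp46, is among the more NK-restricted genes of the mouse.

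Promoter sequence is given for 5 genes, picked with the results known and not the only ones that differ below. They are Ncr1, Klrc2 and Klrk1 as receptors on both sides of the fold threshold, and the Clec2 ligands Clec2d and Clec2i. Each line holds 250 bases before and 50 bases after a RefSeq transcript start in GRCm38.p6, read 5′ to 3′ along the gene. Capitals mark matches, on either strand, to TGTGGT (a core RUNX motif), TTCNNNGAA (a STAT or GAS motif), GAAA, any 2 bases and GAAA again (an interferon-response motif) or GGTGTGA (a T-box motif).
Ncr1, chr7:4337465-4337764, plus strand: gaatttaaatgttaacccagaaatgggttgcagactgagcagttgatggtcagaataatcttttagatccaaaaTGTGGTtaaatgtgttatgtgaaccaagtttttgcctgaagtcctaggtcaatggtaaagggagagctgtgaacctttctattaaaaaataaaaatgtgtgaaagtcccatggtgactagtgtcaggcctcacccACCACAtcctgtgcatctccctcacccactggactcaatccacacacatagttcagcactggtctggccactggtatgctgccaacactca
Klrc2, chr6:129660547-129660846, minus strand: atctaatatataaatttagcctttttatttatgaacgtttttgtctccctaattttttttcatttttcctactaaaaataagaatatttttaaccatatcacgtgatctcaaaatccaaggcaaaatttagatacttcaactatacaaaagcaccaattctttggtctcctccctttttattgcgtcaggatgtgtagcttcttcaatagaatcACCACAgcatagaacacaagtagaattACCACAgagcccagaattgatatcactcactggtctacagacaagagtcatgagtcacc
Klrk1, chr6:129623815-129624114, minus strand: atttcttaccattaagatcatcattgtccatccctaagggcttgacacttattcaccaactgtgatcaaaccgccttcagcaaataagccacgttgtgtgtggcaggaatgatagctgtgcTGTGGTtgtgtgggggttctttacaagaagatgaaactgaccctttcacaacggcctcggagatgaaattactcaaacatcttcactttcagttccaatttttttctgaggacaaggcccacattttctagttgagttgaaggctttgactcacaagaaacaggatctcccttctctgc
Clec2d, chr6:129180365-129180664, plus strand: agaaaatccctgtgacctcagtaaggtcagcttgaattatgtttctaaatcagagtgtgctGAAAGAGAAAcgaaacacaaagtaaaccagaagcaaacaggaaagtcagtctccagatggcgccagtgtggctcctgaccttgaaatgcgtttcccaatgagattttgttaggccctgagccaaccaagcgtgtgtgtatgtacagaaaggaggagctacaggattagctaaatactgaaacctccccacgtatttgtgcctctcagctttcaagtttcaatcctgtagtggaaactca
Clec2i, chr6:128887337-128887636, plus strand: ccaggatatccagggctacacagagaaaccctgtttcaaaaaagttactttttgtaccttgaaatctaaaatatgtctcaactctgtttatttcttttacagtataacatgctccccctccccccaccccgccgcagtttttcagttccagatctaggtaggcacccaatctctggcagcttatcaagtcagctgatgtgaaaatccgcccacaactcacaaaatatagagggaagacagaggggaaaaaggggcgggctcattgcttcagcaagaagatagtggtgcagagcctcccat
The Ncr1 and Klrc2 windows each held 2 matches to the RUNX letters and the Klrk1 window 1, the Clec2d window held 1 match to the interferon-response letters, and the Clec2i window held none of the 4 motifs. No printed window held matches to more than 1 of the motifs. Klrb1f and Klra7, also called in both comparisons below, are not printed. The Klrb1f window held 1 match to TTCNNNGAA and 1 Klra7 window held 2, and neither gene had the RUNX letters. Klrb1c, Klra1 and Klra3 were called in both comparisons as well and are not printed. The Klrb1c and Klra1 windows each held 1 match to the RUNX letters, and Klra1 also 1 to GGTGTGA. The Klra3 window held none of the 4 motifs. The RUNX letters in all printed receptors thus reflect the choice of genes. Windows were at hand for 32 of the 35 genes, 39 windows in all. The RUNX letters were in 11 of these (28.2%), in 9 genes, against 16.8% of 32851 promoter windows of the same length. The other motifs were in 4 windows for TTCNNNGAA, 1 for the interferon-response letters and 1 for GGTGTGA, against 8.3%, 3.44% and 3.98% of all windows. A match describes letters and is not a binding site.

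Low counts limited what could be tested. Klra10, Klrc3, Klrb1, Clec2h and Clec2m reached at most 4 counts in any tumor and were not tested, which left 30 genes. Of these, 10 passed the filter on low counts only because of the responders. A gene is called here when edgeR's quasi-likelihood test gave a Benjamini-Hochberg adjusted p below 0.05 over all 18251 genes tested and the log2 fold change was beyond 1.

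Against non-responders, 9 of the 30 genes passed as higher in responders and 0 as lower, where 12.5% of all genes tested were called higher and 0.663% lower. The 9 were the Ly49 genes Klra1, Klra3 and Klra7, the CD94-NKG2 genes Klrd1 and Klrc2, the NKR-P1 genes Klrb1c and Klrb1f, the ligand Clec2i, and Ncr1. Klra1, Klra3 and Klrb1f passed the filter only through the responders. Among the 20 genes that passed without them, 6 were called higher, beside 9.22% of the 15940 genes that passed likewise (0.728% were called lower). The median log2 fold change over these 20 genes was 0.95, beside -0.01 over the 15940. For 14 genes both responders had more transcript than any of the 6 non-responders and for 2 genes less, Klra2 and Klra4, where 21.5% of all genes lay above and 13.2% below. The 14 include Klra1, Klra3, Klra9, Klri1 and Klrb1f, which passed the filter only through the responders. The filter favors such genes here, and the share among genes that passed without the responders was not computed.

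Against IgG, 15 genes passed as higher in responders and 0 as lower, where 14.3% of all genes tested were called higher and 0.641% lower. These were the 9 genes above with Klra9, Klra8, Klrc1, Klrk1, Klre1 and Clec2d, of which Klra9 and Klra8, like Klra1, Klra3 and Klrb1f, passed the filter only through the responders. Of the 20 genes that passed the filter without responders, 10 were called higher, beside 10.8% of all such genes (0.69% were called lower). The median log2 fold change over these 20 genes was 1.32, beside -0.05 over all such genes. For 15 genes both responders had more than any of the 8 IgG tumors and for 1 gene less, Klra4, where 19.3% of all genes lay above and 9.67% below. The 15 include Klra1, Klra3, Klra8, Klra9, Klri1 and Klrb1f, with the same limit from the filter. Both comparisons share the same 2 responders, so they are not independent of each other.

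**Figure D1:**
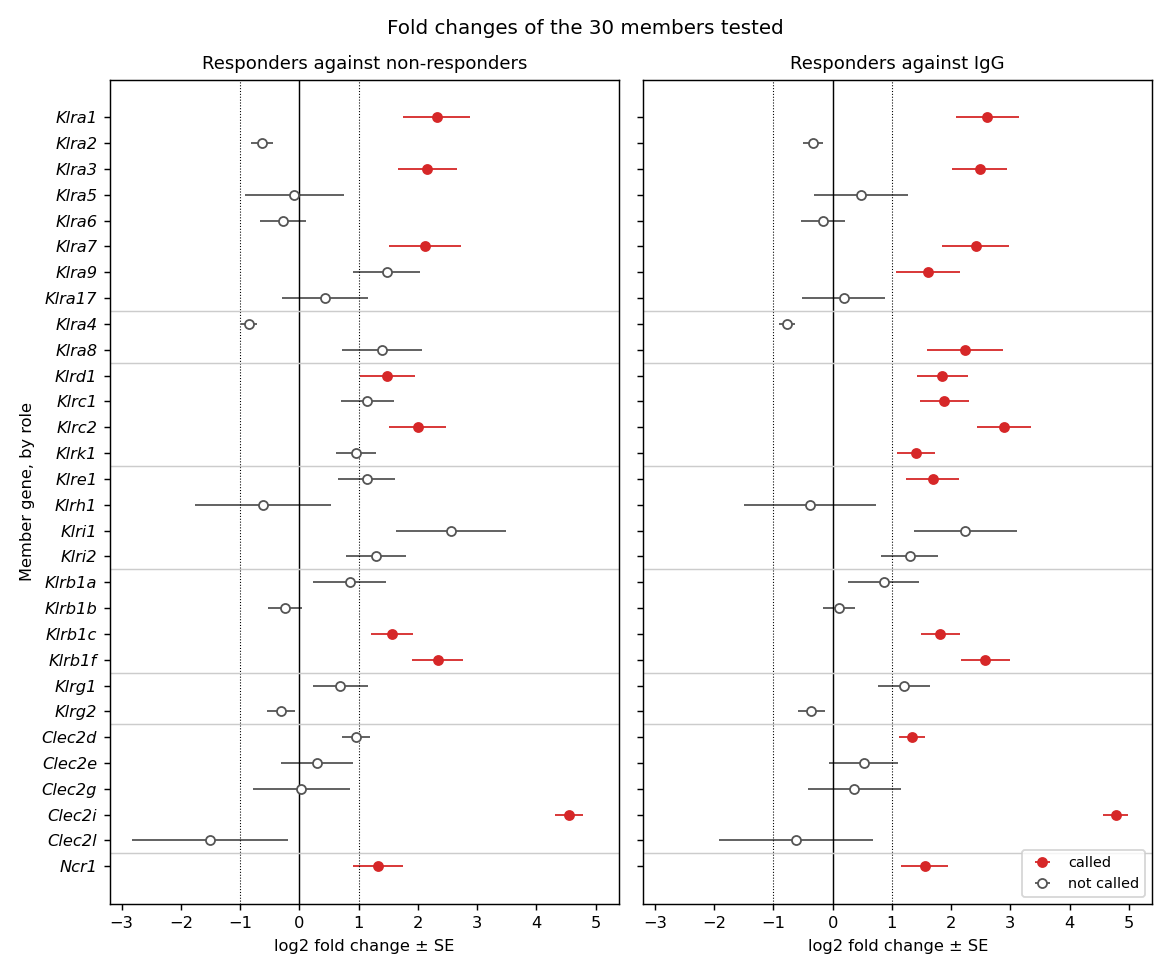
Log2 fold change (x axis, ± SE) of the 30 genes tested, ordered by role (y axis, gray lines between roles), in responders (n = 2) against non-responders (n = 6, left) and against IgG tumors (n = 8, right). Filled red points were called, open points were not, and dotted lines mark a log2 fold change of -1 and 1. Clec2i lies farthest to the right in both panels, at 4.55 and 4.78, while Klra4 lies left of 0 in both.

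To compare genes, levels were put on a scale of CPM per kilobase of transcript. The length used was the median of annotated coding transcripts, and the transcript expressed in these tumors was not determined. It was 1270 bases for Klrk1 and 753 for Klrc1, whose longest coding transcripts have 3197 and 1984. Close ranks are therefore uncertain. The order of mean levels was led in IgG tumors by Klra4 (68.2), Clec2d (38.8), Klra2 (16.97) and Klrb1b (9.1), followed by Klrk1 (5.37), Klrd1 (3.52) and Klrc1 (3.51). Ncr1 stood at 0.630 and Klrc2 at 0.333. In responders the order was Clec2d (97.9), Klra4 (39.98), Clec2i (27.98), Klrk1 (14.3), Klra2 (13.5), Klrc1 (12.99) and Klrd1 (12.7), with Clec2i at 1.01 in IgG tumors. The responders differed in this order: Clec2i was at 36.5 in responder 15, far above Klrc1 (6.44) and Klrk1 (9.57), and at 19.4 in responder 16, level with Klrc1 (19.5) and Klrk1 (18.98). With 2 responders the order from Clec2i to Klrd1 is not settled. Below, each gene is described on the CPM scale, tumor by tumor.

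Of the CD94 and NKG2 genes, Klrd1 and Klrc2 were called higher in responders against both other groups and Klrc1 and Klrk1 against IgG. Klrd1 encodes CD94, the common chain of these dimers, and measured 8.45 CPM in responder 15 and 14.3 CPM in responder 16, from 2.16 to 5.44 CPM (median 4.31) in the non-responders and from 1.49 to 7.34 CPM (median 2.85) in the IgG tumors. Both responders were above every other tumor. The change was called against non-responders (log2 fold change 1.49 ± 0.46 (SE), adjusted p = 0.0304) and against IgG (1.85 ± 0.43, adjusted p = 0.00440). The call against non-responders was lost without responder 15 (adjusted p = 0.0996), responder 16 (0.305), non-responder 10 (0.0672) or non-responder 14 (0.0564), and the call against IgG without responder 16 (0.112).

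Klrc2 encodes the activating chain NKG2C and measured 1.3 and 4.16 CPM in responders 15 and 16, 0.395 to 0.925 CPM (median 0.712) in the non-responders and 0.156 to 0.646 CPM (median 0.318) in IgG tumors. Both responders were above every other tumor, although responder 16 was 3.2 times as high as responder 15. It rose against non-responders (2.0 ± 0.48, adjusted p = 0.00715, lost without responder 16 at 0.406) and against IgG (2.90 ± 0.45, adjusted p = 1.41e-04). Klrc1, for the inhibitory chain NKG2A, measured 4.85 and 14.7 CPM in responders 15 and 16, 2.79 to 6.11 CPM (median 4.42) in the non-responders and 1.69 to 5.82 CPM (median 2.21) in IgG tumors. Responder 15 lay inside the range of both other groups, and only responder 16 stood above it. The difference did not pass the test against non-responders (1.15 ± 0.44, adjusted p = 0.0836, but 0.0358 without IgG 8) and was called against IgG (1.89 ± 0.41, adjusted p = 0.00270), a call lost without responder 16 (0.314). Klrc1 remained the more abundant of the pair everywhere, with Klrc2 making up 21.2% and 22.1% of their joint count in the responders, 10.2% to 17.6% in the non-responders and 5.75% to 26.2% in the IgG tumors. These transcripts share sequence: 26.7% of the 75-base windows of the longest Klrc1 transcript and 20.9% of those of Klrc2 also occur in another gene, so reads between them are split by estimate and the share is uncertain.

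Klrk1 encodes NKG2D, an activating receptor of NK and CD8 T cells. It measured 12.1 CPM in responder 15 and 24.1 CPM in responder 16, from 5.89 to 12.01 CPM (median 9.49) in the non-responders and from 4.36 to 11.6 CPM (median 5.86) in the IgG tumors. Responder 15 was barely above the highest non-responder and responder 16 stood clear of all others. The rise was called against IgG (1.41 ± 0.31, adjusted p = 0.00324, lost without responder 16 at 0.215) and missed the threshold against non-responders (0.95 ± 0.34, adjusted p = 0.0578). Klre1, which pairs with the Klri chains, measured 1.21 and 3.46 CPM in responders 15 and 16, 0.516 to 1.58 CPM (median 1.2) in the non-responders and 0.328 to 1.33 CPM (median 0.691) in IgG tumors. Responder 15 again lay within the other groups. Klre1 was called against IgG only (1.69 ± 0.45, adjusted p = 0.0118, lost without responder 16 at 0.491; against non-responders 1.14 ± 0.49, adjusted p = 0.119). Klri2 measured 1.51 and 2.02 CPM in responders 15 and 16, 0.304 to 1.23 CPM (median 0.633) in the non-responders and 0.450 to 1.27 CPM (median 0.584) in IgG tumors, and both responders lay above the rest without passing the test (1.29 ± 0.50, adjusted p = 0.0846 against non-responders and 1.3 ± 0.48, adjusted p = 0.0618 against IgG). It passed against non-responders without non-responder 13 (0.0442), and against IgG without IgG 8 (0.0337), with only the 2 groups in the fit (0.0362) or without the 3 tumors of high mitochondrial share (0.0394).

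Ncr1, the NKp46 gene, measured 2.07 CPM in responder 15 and 3.43 CPM in responder 16, from 0.547 to 1.53 CPM (median 1.17) in the non-responders and from 0.532 to 1.61 CPM (median 0.794) in the IgG tumors. Both responders were above all other tumors. It rose against non-responders (log2 fold change 1.32 ± 0.42 (SE), adjusted p = 0.0346) and against IgG (1.56 ± 0.40, adjusted p = 0.00820). The call against non-responders was lost under several alternatives, with an adjusted p of 0.0660 without the filter on low counts and from 0.0504 to 0.348 when non-responder 10, 12 or 14 or either responder was left out. Against IgG it was lost without responder 16 (0.180). For comparison, 9 of 14 NK cell genes outside these families were called higher against non-responders and 0 lower (median log2 fold change 1.82). Of all genes tested, 12.5% were called higher and 0.663% lower. The list summed to 104 and 168 CPM in responders 15 and 16, 39.01 to 72.6 CPM in the non-responders and 31.6 to 61.5 CPM in the IgG tumors. All 10 T cell markers were also called higher there (median log2 fold change 3.57), and the part of T cells in the NK cell list was not tested. Sh2d1b1, which encodes the NK cell adaptor EAT-2, lay below every non-responder in both responders and passed the adjusted p threshold downward without being called (-0.78 ± 0.26, adjusted p = 0.0437). Styk1 also lay below every other tumor (-0.67 ± 0.23, adjusted p = 0.0511 against non-responders and -0.76 ± 0.23, adjusted p = 0.0230 against IgG). Il2rb, a cytokine receptor chain of NK and T cells, measured 26.9 and 38.5 CPM in responders 15 and 16, 4.06 to 14.8 CPM in the non-responders and 3.32 to 11.9 CPM in the IgG tumors. Prf1, which encodes perforin, measured 9.64 and 21.5 CPM in responders 15 and 16, 5.62 to 15.5 CPM in the non-responders and 1.78 to 11.8 CPM in the IgG tumors, so that responder 15 lay inside both ranges (against non-responders 0.66 ± 0.58, adjusted p = 0.493).

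**Figure D2:**
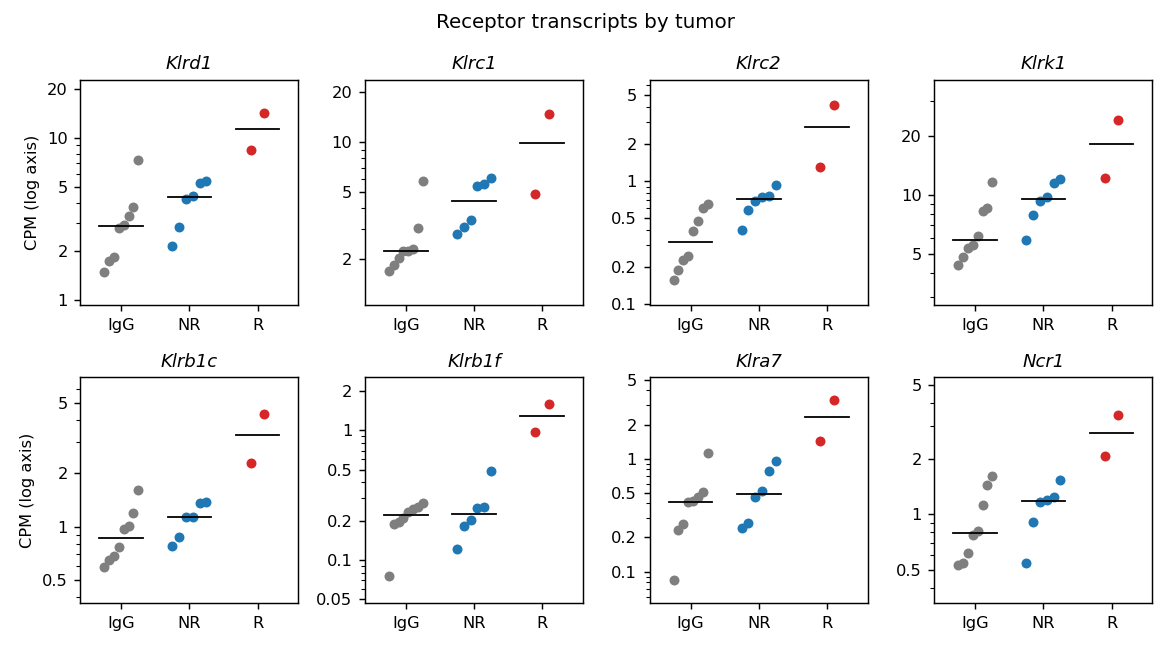
CPM (y axis, log scale) of 8 receptor genes in each tumor, for IgG (n = 8), non-responders (NR, n = 6) and responders (R, n = 2), with points sorted by value within a group and a line at the group median. Responder 16 is the higher of the 2 red points in each panel, and the lower red point lies among the blue points for Klrc1.

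The Ly49 genes fell into a small abundant set and a larger rare set. Klra4 (Ly49D, an activating receptor) and Klra2 (Ly49B, known from myeloid cells) made up most Ly49 transcripts. Per kilobase of transcript, Klra4 averaged 66.04 CPM and Klra2 18.03 CPM over the 16 tumors, Klra6 1.88 CPM, and every other Ly49 gene under 0.672 CPM. Klra4 was 16.4 to 201 times as high as Ncr1 on this scale, with the lowest ratio in responder 16. The cells that carry it were not tested.

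Klra4 was lower in responders than in both other groups, and Klra2 lower than in non-responders, both by less than the fold threshold. Klra4 measured 52.1 CPM in responder 15 and 47.5 CPM in responder 16, from 76.2 to 97.4 CPM (median 89.8) in the non-responders and from 73.03 to 105 CPM (median 81.8) in the IgG tumors. Both responders lay below every other tumor. It passed the adjusted p threshold against non-responders (log2 fold change -0.84 ± 0.13 (SE), adjusted p = 2.34e-04) and against IgG (-0.77 ± 0.13, adjusted p = 3.16e-04), but with a log2 fold change short of -1 it was not called. Of all genes tested, 4.34% passed that threshold downward against non-responders and 5.17% against IgG. Klra4 made up 67.3% and 60.3% of Ly49 counts in responders 15 and 16, 68.9% to 74.2% in non-responders and 67.9% to 80.1% in IgG tumors. Klra2 measured 18.4 and 21.1 CPM in responders 15 and 16, 26.7 to 36.5 CPM (median 29.9) in the non-responders and 19.3 to 34.2 CPM (median 24.3) in IgG tumors. It was below all non-responders in both responders (-0.64 ± 0.18, adjusted p = 0.0197) but overlapped the IgG tumors (-0.33 ± 0.17, adjusted p = 0.196).

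Of 8 macrophage and monocyte markers, 1 was called higher (Mrc1, the mannose receptor) and 0 lower against non-responders, where 12.5% of all genes tested were called higher. The median log2 fold change was 0.44, and 6 of the 8 values were above 0. Against IgG, 2 were called higher (Mrc1 and Lyz2), beside 14.3% of all genes tested. The summed level of the list was 2291 and 2510.1 CPM in responders 15 and 16, 1026 to 2192 CPM in the non-responders and 1009 to 1749 CPM in the IgG tumors. Lyz2 (lysozyme) measured 1293 and 1573 CPM in responders 15 and 16, 422 to 1259 CPM in the non-responders and 433 to 988 CPM in the IgG tumors. Csf1r measured 204 and 190 CPM in responders 15 and 16, 121 to 186 CPM in the non-responders and 109 to 181 CPM in the IgG tumors. By edgeR neither Csf1r (0.40 ± 0.19, adjusted p = 0.159) nor C1qa (-0.02 ± 0.14, adjusted p = 0.960) passed against non-responders. Fcgr1, an Fc receptor gene, measured 44.5 and 69.2 CPM in responders 15 and 16, 52.6 to 78.9 CPM in the non-responders and 44.8 to 64.9 CPM in the IgG tumors (-0.22 ± 0.18, adjusted p = 0.467 against non-responders). Their part in the levels of Klra2 and Klra4 was not tested.

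Among the rare Ly49 genes, Klra7, Klra1 and Klra3 were called higher in responders against both other groups. Klra1 and Klra3 passed the filter on low counts only through the responders. Klra7 (Ly49G, inhibitory) measured 1.42 and 3.26 CPM in responders 15 and 16, 0.243 to 0.946 CPM (median 0.485) in the non-responders and 0.0844 to 1.11 CPM (median 0.414) in IgG tumors, so that both responders were above every other tumor. It was called in both comparisons (2.12 ± 0.61, adjusted p = 0.0202 against non-responders and 2.41 ± 0.57, adjusted p = 0.00485 against IgG), but the first call was lost without responder 15 (0.0583) or responder 16 (0.305) and the second without responder 16 (0.160). Klra1 (Ly49A, inhibitory) had 28 and 42 counts in responders 15 and 16, from 1 to 13 in the non-responders and from 1 to 8 in the IgG tumors. It was called against both groups (2.32 ± 0.57, adjusted p = 0.00744 and 2.61 ± 0.53, adjusted p = 0.00157), and against non-responders not without responder 15 (0.0616) or 16 (0.0900). Klra3 (Ly49C, inhibitory) had 21 and 18 counts in the responders and 2 to 7 elsewhere. It was called against both groups (2.16 ± 0.50, adjusted p = 0.00476 and 2.48 ± 0.47, adjusted p = 8.41e-04) and in neither without responder 15 (0.141 and 0.0503).

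Klra9 (Ly49I, inhibitory) and Klra8 (Ly49H, an activating receptor for a cytomegalovirus protein) were called against IgG only, and both passed the filter on low counts only through the responders. Klra9 had 12 and 24 counts in the responders, 2 to 10 in non-responders and 2 to 9 in IgG tumors (1.61 ± 0.54, adjusted p = 0.0379 against IgG, 1.47 ± 0.56, adjusted p = 0.0783 against non-responders). That call was lost without IgG 2, 4, 5 or 7, non-responder 10, responder 15 or responder 16 (adjusted p from 0.0542 to 0.410), without the filter on low counts (0.0778) and with only the 2 groups in the fit (0.0656). Klra8 had 17 and 57 counts in the responders and overlapped the non-responders, which had 4 to 25 (2.24 ± 0.64, adjusted p = 0.0172 against IgG, lost without responder 16 at 0.446; 1.39 ± 0.68, adjusted p = 0.177 against non-responders). Klra8 shares 19.7% of its 75-base windows with another gene, mainly with the pseudogene Klra14-ps (16.03% of its windows). Klra9 shares 12.9%, with the pseudogene Klra11-ps as the largest partner (5.81% of its windows). The small counts of Klra8 and Klra9 are therefore uncertain. Neither Klra6 (Ly49F) nor Klra17 (Ly49Q, known from plasmacytoid dendritic cells) was called. Klra6 measured 1.95 and 1.72 CPM in responders 15 and 16, 1.18 to 3.17 CPM (median 2.04) in the non-responders and 1.3 to 3.72 CPM (median 2.0) in IgG tumors. Klra17 measured 1.03 and 0.675 CPM in responders 15 and 16, 0.103 to 1.37 CPM (median 0.564) in the non-responders and 0.363 to 1.56 CPM (median 0.517) in IgG tumors. The responders lay inside the other groups' ranges for both genes.

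**Figure D3:**
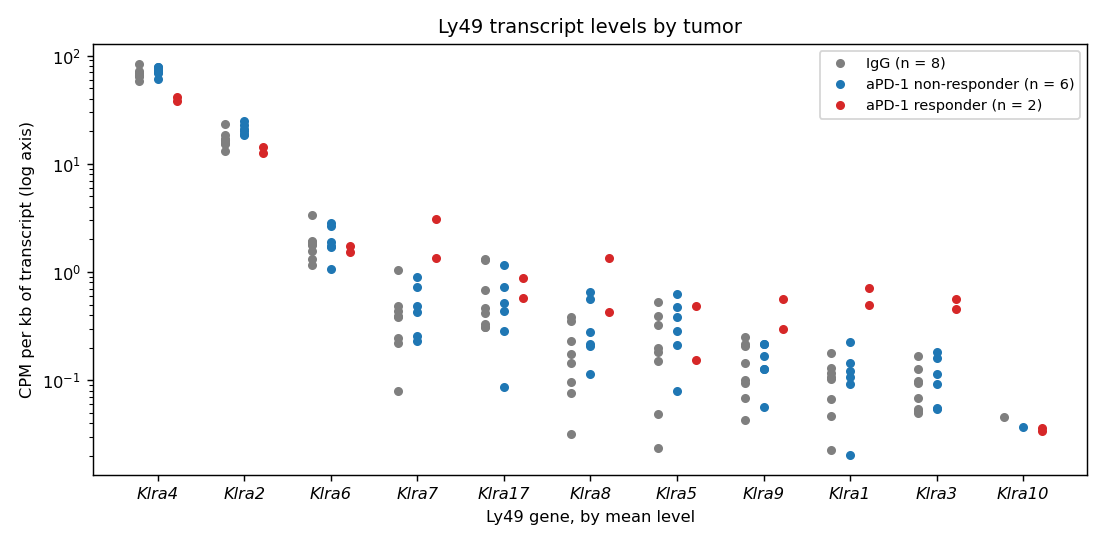
CPM per kilobase of transcript (y axis, log scale) of the 11 Ly49 genes (x axis, ordered by mean level) in each tumor, with tumors at 0 counts left out. Red points (responders, n = 2) lie below gray (IgG, n = 8) and blue (non-responders, n = 6) for Klra4, and above both for Klra7, Klra9, Klra1 and Klra3.

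Clec2i, which encodes Clr-g, a ligand of NKR-P1F, had the largest fold change of the 30 genes tested. It had 1301 counts in responder 15 and 727 in responder 16, and 23 to 60 in the other 14 tumors. On the CPM scale this was 38.5 and 20.4 CPM in responders 15 and 16, 0.942 to 1.73 CPM (median 1.18) in the non-responders and 0.861 to 1.32 CPM (median 1.04) in IgG tumors. The responders stood far above a narrow range that the other groups shared. It was 23.4 times as high in responders as in non-responders (log2 fold change 4.55 ± 0.23 (SE), adjusted p = 9.14e-09) and 27.4 times as high as in IgG tumors (4.78 ± 0.21, adjusted p = 7.31e-10), and both calls held with each tumor left out in turn. The gene overlaps BC035044 on the opposite strand, which also had more counts in responders 15 and 16 (212 and 103) than in the other tumors (0 to 23). The libraries were strand-specific, but whether the counting used strand is not given in the sources used here.

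Clec2d encodes Clr-b, the widely expressed ligand that engages the inhibitory receptor NKR-P1B. It was the most abundant Clec2 gene and measured 145 CPM in responder 15 and 93.03 CPM in responder 16, from 50.5 to 72.8 CPM (median 59.96) in the non-responders and from 35.7 to 77.98 CPM (median 42.5) in the IgG tumors. Both responders were above every other tumor, with responder 15 the higher. Against IgG it was called (1.34 ± 0.22, adjusted p = 2.69e-04, lost without responder 15 at 0.0783). Against non-responders it passed the adjusted p threshold with a log2 fold change just short of 1 (0.95 ± 0.24, adjusted p = 0.00881), and it was called there without non-responder 9 or responder 16. The distance between both ligands narrowed: per kilobase, Clec2d was 3.26 and 3.95 times as high as Clec2i in responders 15 and 16, 30.1 to 57.5 times in non-responders and 23.4 to 71.2 times in IgG tumors.

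Their receptors differed from each other. Klrb1b, the gene of the inhibitory receptor NKR-P1B, measured 11.4 and 11.4 CPM in responders 15 and 16, 10.7 to 20.4 CPM (median 12.4) in the non-responders and 5.37 to 13.5 CPM (median 11.1) in IgG tumors. The responders lay in the middle of the other tumors (-0.24 ± 0.29, adjusted p = 0.629 against non-responders and 0.11 ± 0.27, adjusted p = 0.823 against IgG). Klrb1f, the gene of NKR-P1F, had 33 and 57 counts in responders 15 and 16, 4 to 19 in non-responders and 2 to 10 in IgG tumors. It passed the filter on low counts only through the responders and was called against both groups (2.33 ± 0.44, adjusted p = 0.00101 and 2.58 ± 0.41, adjusted p = 1.69e-04). With each tumor left out in turn, its log2 fold change ran from 1.88 to 2.63 against non-responders and from 2.13 to 2.82 against IgG. Gm44000, which overlaps Klrb1f on the opposite strand, had 7 and 3 counts in responders 15 and 16 and 0 in the other tumors. Clec2i exceeded Klrb1f per kilobase by 38.5 and 12.5 times in the responders and by 2.52 to 11.2 times in the other tumors. The ratios in the other tumors rest on 2 to 19 counts of Klrb1f and are uncertain. Klrb1c encodes NK1.1, the activating receptor used to stain NK cells in C57BL/6 mice, and measured 2.28 and 4.33 CPM in responders 15 and 16, 0.779 to 1.38 CPM (median 1.13) in the non-responders and 0.596 to 1.61 CPM (median 0.869) in IgG tumors. Only the responders stood apart from the other groups. It was called against non-responders (1.57 ± 0.35, adjusted p = 0.00438) and IgG (1.82 ± 0.33, adjusted p = 6.48e-04), with both calls lost without responder 16 (0.172 and 0.0614). Klrb1b and Klrb1c share 26.9% and 14.99% of their 75-base windows with other genes, mainly with Gm44511, which overlaps them on the same strand and had 0 to 101 counts.

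**Figure D4:**
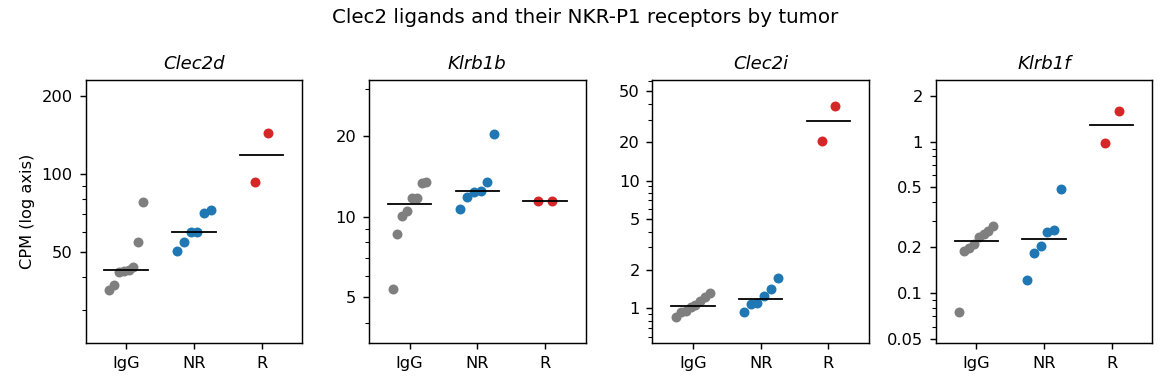
CPM (y axis, log scale) of Clec2d and its receptor gene Klrb1b, and of Clec2i and its receptor gene Klrb1f, in IgG (n = 8), non-responder (NR, n = 6) and responder (R, n = 2) tumors, with a line at the group median. Clec2d, Clec2i and Klrb1f are higher in both responders than in any other tumor, while Klrb1b stands at 11.4 CPM in both, inside the other ranges.

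The responders also differed from each other. Among 21 receptor genes described by tumor, 17 were higher in responder 16, as were 12 of the 13 receptors called against IgG. Clec2d and Clec2i were higher in responder 15, by 1.55 and 1.88 times. Responder 15 was also the one with more B cell and lymph node stroma transcripts, and responder 16 the one with more transcripts of the NK cell list. With 1 tumor on each side these are descriptions without a test.

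KLRG receptors were not called. Klrg1, a receptor for cadherins, measured 1.24 and 3.01 CPM in responders 15 and 16, 0.576 to 2.13 CPM (median 1.28) in the non-responders and 0.418 to 1.41 CPM (median 1.02) in IgG tumors. Responder 15 lay near the middle of the non-responders, and the difference did not pass against non-responders (0.69 ± 0.47, adjusted p = 0.352) or IgG (1.21 ± 0.44, adjusted p = 0.0578). Against IgG it passed without IgG tumor 8 (0.0423), without non-responder 14 (0.0413) with DESeq2 (0.0458) and without the 3 tumors of high mitochondrial share (0.0339). Klrg2 measured 2.25 and 3.66 CPM in responders 15 and 16, 3.01 to 4.22 CPM (median 3.7) in the non-responders and 2.88 to 4.98 CPM (median 3.71) in IgG tumors, with overlapping groups.

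The 7 remaining genes tested, Klra5, Klrh1, Klri1, Klrb1a, Clec2e, Clec2g and Clec2l, averaged 4.0 to 16.1 counts per tumor. None was called against either group, with adjusted p no smaller than 0.065. Klri1 came nearest, with 17 and 22 counts in responders 15 and 16 and 0 to 13 elsewhere. Counts of this size limit what the test can detect.

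Of 9 tested genes for ligands that the receptors read, 1 was called higher and 0 lower against either group, a share near that of all genes tested (12.5% higher against non-responders and 14.3% against IgG). The called gene was H2-T23, which encodes Qa-1, the molecule read by CD94-NKG2, and it measured 268 and 225 CPM in responders 15 and 16, 81.1 to 147 CPM in the non-responders and 51.4 to 124 CPM in the IgG tumors (1.15 ± 0.29, adjusted p = 0.00941 against non-responders and 1.76 ± 0.27, adjusted p = 1.19e-04 against IgG). The MHC class I genes H2-K1 (0.11 ± 0.19, adjusted p = 0.761) and H2-D1 (0.07 ± 0.19, adjusted p = 0.851) and their light chain B2m (-0.37 ± 0.21, adjusted p = 0.262) did not pass against non-responders. Raet1d and Raet1e, genes of the RAE-1 ligands of NKG2D, were also lower in both responders than in any non-responder (-0.72 ± 0.21, adjusted p = 0.0208 and -0.80 ± 0.25, adjusted p = 0.0361) and were not called, and Ulbp1, the gene of the NKG2D ligand MULT-1, overlapped (-0.50 ± 0.31, adjusted p = 0.299). Cdh1, whose product E-cadherin is read by KLRG1, was above every other tumor in both responders and passed the adjusted p threshold without being called (0.78 ± 0.24, adjusted p = 0.0276 against non-responders and 0.96 ± 0.22, adjusted p = 0.00475 against IgG).

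Of 14 adaptor and signaling genes, 8 were called higher and 0 lower against non-responders (median log2 fold change 1.26). Over all genes tested, 12.5% were called higher and 0.663% lower. Sh2d1b1, described above, passed the adjusted p threshold downward. Tyrobp, which encodes DAP12, the adaptor of Ly49D, Ly49H and NKG2C, did not pass (-0.03 ± 0.13, adjusted p = 0.922). Hcst, which encodes DAP10, the adaptor of NKG2D, rose (1.93 ± 0.37, adjusted p = 0.00109). Ptpn6, the gene of the phosphatase SHP-1 that inhibitory receptors recruit, measured 176 and 92.9 CPM in responders 15 and 16, 45.5 to 57.3 CPM in the non-responders and 37.3 to 56.4 CPM in the IgG tumors and rose (1.38 ± 0.18, adjusted p = 2.62e-05). The other 6 called were Cd247, Syk, Zap70, Lat, Vav1 and Sh2d1a, which act in T cell, B cell and NK cell receptor signaling. The T cell and B cell sums given above moved with these genes, and their part was not tested.

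No gene of the families was called between non-responders and IgG tumors. By edgeR 0 of 30 were called, as were 0.0% of all genes tested in either direction, and DESeq2 also called 0. At an unadjusted p below 0.05 there were 4 genes by edgeR (Klra2, Klrc1, Klrc2 and Clec2d) and 4 by DESeq2, where 3.8% of all genes tested reached it by edgeR, and the smallest adjusted p was 0.987. Their log2 fold changes were 0.30 ± 0.11 for Klra2, 0.74 ± 0.31 for Klrc1, 0.90 ± 0.36 for Klrc2 and 0.39 ± 0.16 (SE) for Clec2d. For the 23 genes described by tumor, log2 fold changes ran from -0.25 for Klra17 to 0.90 for Klrc2. The value was above 0 for 27 of the 30 genes tested (median 0.29), beside 8890 of all 18251 genes (median -0.01). All 30 were measured in the same tumors, so the 27 are not separate observations. No gene of the 30 had every non-responder above or below every IgG tumor, which 0.0164% and 0.0219% of all genes did. T cell markers were on the same side in all 10 cases (median 0.56), with 0 called.

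Variation among these 14 tumors was compared with that of T cell transcripts and of Ncr1. IgG tumor 8 had the highest level of its group for 11 of 21 receptors and non-responder 11 for 10. Both also had the highest mean of Cd3d, Cd3e and Cd3g in their groups. Across the 14 tumors, Klrk1 correlated with that mean on the log2 CPM scale (Pearson r = 0.881, permutation adjusted p = 0.0261; Spearman rho = 0.908, permutation adjusted p = 0.0332). The r was 0.835 without IgG 8 and non-responder 11, the tumors farthest from the median of Cd3, 0.890 within the 8 IgG tumors and 0.743 within the 6 non-responders. It was the only 1 of 30 genes to pass by r after adjustment over all genes, and it also passed by rho. By r alone, 0.296% of all genes tested passed. The genes tested include Cd3d, Cd3e and Cd3g themselves. Klrc1 came next (r = 0.836, permutation adjusted p = 0.0626; rho = 0.785, permutation adjusted p = 0.137). By unadjusted permutation p below 0.05, 17 genes passed for r and 13 for rho. The share of all genes at this cut was not computed, so these counts are not a trait of the families.

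The same was computed against Ncr1, which had 14 to 58 counts in the IgG tumors and 18 to 53 in the non-responders. None of the other 29 genes passed after adjustment (smallest permutation adjusted p 0.826), and by r neither did any gene of the table. The smallest p that the permutations could give was 1e-05. A lone gene at that floor cannot pass after adjustment over 18251 genes. The result for the table therefore does not show that no gene correlates with Ncr1. The smallest unadjusted permutation p of the 29 genes lay above the floor, at 9.4e-04 (Klrb1c, by rho). Without adjustment 11 passed for r and 12 for rho, again without the share of all genes at this cut. Klrb1c (r = 0.781, rho = 0.807) and Klrd1 (r = 0.780, rho = 0.736) had the highest values, with permutation adjusted p from 0.826 to 1.000 over both genes and measures. Without IgG 1 and non-responder 10, the tumors farthest from the median of Ncr1, the r was 0.787 for Klrb1c and 0.832 for Klrd1. Klrk1, the gene that passed for Cd3, had r = 0.667 and rho = 0.662 to Ncr1 over the 14 tumors. Its r to Ncr1 was 0.796 without those 2 tumors, 0.504 within the 8 IgG tumors and 0.952 within the 6 non-responders. Which cells carry Klrk1 was not tested. Genes with r of at least 0.7 were Klra2, Klrh1, Klrc1, Klrk1 and Klrd1 for Cd3, and Klrb1c, Klrd1, Klre1, Klrc1 and Klra5 for Ncr1, so that Klrc1 and Klrd1 were on both lists. The share of all genes at this r was not computed. Klrh1 had 0 to 14 counts in these tumors, and its r to Cd3 was 0.527 without IgG 8 and non-responder 11. Klra5 had 1 to 25 counts.

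**Figure D5:**
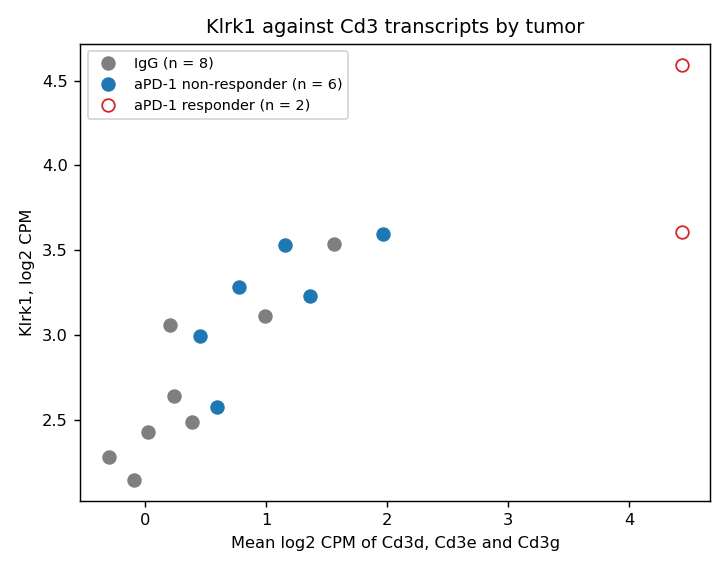
Klrk1 (y axis, log2 CPM) against the mean log2 CPM of Cd3d, Cd3e and Cd3g (x axis) in each tumor. The 14 filled points (8 IgG and 6 non-responders) entered the correlation of 0.881. The 2 responders (open) sit at 4.43 and 4.44 on the Cd3 axis, and responder 15 has about the Klrk1 level of the highest non-responder.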

How the data were processed

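The authors aligned paired 150-base reads of strand-specific polyA libraries to GRCm38 with STAR 2.6 and deposited RSEM 1.3.0 expected counts per Ensembl gene, without normalization. RNA came from 100 µm sections of frozen tumor blocks. The 92 rows that name no gene (at most 185 counts per tumor) were dropped, and expected counts were rounded to whole numbers, 7.84% of values not being whole. Symbols and biotypes came from GENCODE M21 (53274 IDs matched) and RefSeq GRCm38.p6, the latter for Klrh1 and Clec2m, which GENCODE lists under older names. 6 pseudogenes of the families were not counted as members.

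One edgeR 4.0.16 quasi-likelihood model (glmQLFit, robust; TMM scaling; filterByExpr; R 4.3.3) was fitted to the 3 groups of 16 tumors, in place of the study's DESeq2, which was run as an alternative (1.42.0). SE is the absolute log2 fold change divided by the root of F. CPM uses TMM-scaled library sizes, and per-kilobase values divide by the median length of coding transcripts. Correlations used log2 CPM (prior count 2) and 100000 two-sided permutations. Tests were checked on simulated data. No 2 of the 120 tumor pairs agreed within sampling noise (chi-square per degree of freedom at least 15.2). Replicate numbers run from 1 to 16 and pair no tumors.

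The genes, lists and tests were chosen with earlier results of these data known. Values by tumor are given for the 23 genes that averaged 20 counts or more or passed in some comparison, and ranges for the rest. Genes outside the families are named only from the lists, at most the 3 of highest level and any beside which a result stands, and those named because they passed were chosen after their values were seen. The libraries hold no batch label. Alternatives were DESeq2, median-of-ratios scaling, no filter, at least 10 counts in at least 8 tumors, fits of 2 groups, and leaving out each tumor. A fit without the 3 tumors with a mitochondrial share over 5% was added after seeing the data.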

Additional observations from a re-analysis of the deposited data

Results flagged for a closer look

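In 7 of 46 groups tested (23 genes in 2 groups), 1 tumor lay farther from the others than Dixon's criterion allows, where chance gives about 1 in 20. IgG tumor 8 stood high for the receptor genes Klrd1 (7.34 CPM, the other IgG tumors 1.49 to 3.78), Klrc1 (5.82 CPM, others 1.69 to 3.07) and Klra7 (1.11 CPM, others 0.0844 to 0.510). IgG tumor 1 stood high for Clec2d (78.0 CPM, others 35.7 to 54.5) and Klra6 (3.72 CPM, others 1.3 to 2.18). This tumor had the highest mitochondrial share of counts, 7.60%, whose part in these values was not tested. Non-responder 12 stood high for Klrb1b (20.4 CPM, others 10.7 to 13.5). IgG tumor 3 stood low for Klrb1f (0.0749 CPM, which is 2 counts, others 0.190 to 0.277).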

How the results depend on the processing

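With 2 responders, single tumors set many calls. Leaving out each tumor in turn, 4 to 11 genes were called against non-responders, with 4 without responder 15 and 4 without responder 16, and 6 to 18 against IgG, with 6 without responder 16. With 1 responder left, that tumor is assumed to vary like the other groups. Under DESeq2, other scaling, other filters, 2-group fits and the fit without high mitochondrial shares, 6 to 10 were called against non-responders and 11 to 18 against IgG. Without the 3 tumors of high mitochondrial share, Klrd1 lost its call against non-responders (adjusted p = 0.0784) and Clec2d gained one (4.25e-04), while Klri2 and Klrg1 gained calls against IgG (0.0394 and 0.0339). Non-responders against IgG gave 0 under every alternative run. Listed genes called ranged from 49 to 60 against non-responders and from 53 to 62 against IgG with each tumor left out. Genes with r of at least 0.7 numbered 5 for Cd3 and 5 for Ncr1, and 3 to 9 and 2 to 6 with each tumor left out. Leaving out IgG 4 raised the Cd3 number to 9, and leaving out IgG 8 or non-responder 11 lowered it to 3 and that for Ncr1 to 2.

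Directions reversed only for values that passed no test. With each tumor left out, the log2 fold change ran from -0.13 to 1.12 for Klrg1 (responders against non-responders), from -0.22 to 0.43 for Klra17 (responders against IgG), and in non-responders against IgG from -0.0257 to 0.29 for Klra6, -0.22 to 0.18 for Klri2, -0.0529 to 0.39 for Klrb1f and -0.10 to 0.0172 for Klrg2. Klri2 was -0.0015 there under median-of-ratios scaling, and Klra6 -0.0287 without the 3 tumors of high mitochondrial share; the cause was not tested. Of 1104 single-gene values with a tumor left out, 1048 kept direction and side of the threshold, as did 386 of 397 under the other alternatives. Counts under about 20 per tumor limit the rare Ly49, Klri and Clec2 genes. No paired analysis was possible because replicate numbers are not shared between groups.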

Other observations

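Other lectin genes of the same complex on chromosome 6, outside the receptor families, were called in part. Of 7 tested, 3 were called higher and 0 lower against non-responders and 4 higher against IgG. Over all genes tested, 12.5% were called higher against non-responders and 14.3% against IgG. The summed level of the 8 listed genes was 89.3 and 229 CPM in responders 15 and 16, 57.9 to 117 CPM in the non-responders and 35.9 to 95.7 CPM in the IgG tumors. Cd69, an early activation marker of lymphocytes, measured 22.8 and 15.5 CPM in responders 15 and 16, 3.8 to 6.2 CPM in the non-responders and 2.85 to 6.59 CPM in the IgG tumors (1.87 ± 0.26, adjusted p = 5.66e-05 against non-responders by edgeR). Clec7a, which encodes the fungal glucan receptor Dectin-1 of myeloid cells, measured 23.4 and 169 CPM in responders 15 and 16, 19.3 to 64.1 CPM in the non-responders and 15.1 to 45.8 CPM in the IgG tumors, so that only responder 16 lay above the other groups (1.02 ± 0.55, adjusted p = 0.230 against non-responders, and called against IgG at 1.63 ± 0.51, adjusted p = 0.0294). Clec12a, an inhibitory receptor of myeloid cells, measured 27.2 and 27.4 CPM in responders 15 and 16, 21.1 to 37.1 CPM in the non-responders and 14.02 to 35.05 CPM in the IgG tumors (0.02 ± 0.27, adjusted p = 0.980).

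The Ly49 pseudogene Klra13-ps had 49 and 30 counts in responders 15 and 16 and 1 to 20 in the other tumors. Klra7 shares 6.99% of its 75-base windows with it. The pseudogene was higher in responder 15, whereas Klra7 was 2.3 times as high in responder 16 as in responder 15. On the strand opposite Clec2g, Gm15987 had 271 and 213 counts in the responders and 4 to 37 elsewhere, while Clec2g itself had 8 and 9 counts and 1 to 22 elsewhere.

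Of 8 dendritic cell markers, 5 were called higher and 0 lower against non-responders (median log2 fold change 1.95), namely Flt3, Xcr1, Clec9a, Siglech and Ccr9, with Flt3, the receptor for a dendritic cell growth factor, at 3.22 ± 0.41, adjusted p = 2.38e-05. Siglech and Ccr9 are known from plasmacytoid dendritic cells. Of 6 mast cell markers 1 was called higher, Kit (1.13 ± 0.32, adjusted p = 0.0197), with a median log2 fold change of 1.15. Of 7 keratinocyte markers tested 1 was called higher, Sbsn (1.78 ± 0.34, adjusted p = 0.00116). The median of the keratinocyte list was -0.88, and 2 of its 7 genes were above 0. Over all genes tested, 12.5% were called higher. Krt14 was highest in a non-responder at 36.5 CPM. Of 6 colon epithelium markers tested, 5 were called higher, with Krt8 at 31.9 and 13.1 CPM in responders 15 and 16, 0.0304 to 1.03 CPM in the non-responders and 0.0374 to 1.37 CPM in the IgG tumors. All 10 T cell, 10 B cell and 6 lymph node stroma markers were called higher against both groups.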
